A study of Mus musculus with 6 samples.

Results

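Polycomb repressive complex 2 (PRC2) and its cofactors were followed in mouse spermatogonial stem cells and embryonic stem cells through 9 genes: the catalytic subunits Ezh1 and Ezh2, the core subunits Eed and Suz12, and the accessory subunits Jarid2, Mtf2, Phf19, Aebp2 and Epop. They were taken by gene symbol, with every probe annotated to them, from 19057 genes with a named probe on the array. The 9 genes had 22 probes, of which 15 passed the filter on dim probes, so that 8 of the 9 genes were among the 10024 genes measured. Jarid2 had 2 probes and neither passed.

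One group was of spermatogonial stem cells (SSC), the germ cells that renew themselves in the testis, from the mouse strain C57BL/6, in 3 samples. They were set against 3 samples of embryonic stem cells (ESC), pluripotent cells of the early embryo, here the line R1/E. Total RNA was hybridised as biotin-labelled cRNA to 1-colour Illumina bead arrays, 1 array per sample. The labels number the samples of each group 1 to 3 and do not say whether they came from separate animals or cultures. The spread behind each p-value is therefore that between these samples and may be technical. No treatment or transgene is given for either group, nor, in the sources used here, the age of the animals or how the cells were isolated and grown, and strain and cell type cannot be told apart.

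PRC2 places methyl groups on a lysine of histone H3 (H3K27), a mark of silenced developmental genes. Ezh2 or its paralog Ezh1 supplies the methyltransferase, Eed binds the finished mark, and Suz12 holds the core together and is the surface to which accessory subunits attach. The accessory subunits define alternative assemblies, PRC2.1 with Mtf2, Phf19 or Phf1 and Epop, and PRC2.2 with Jarid2 and Aebp2, which differ in how they are brought to chromatin. In embryonic stem cells PRC2 is known for covering the promoters of lineage regulators.

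Defining markers were checked against the labelled cell types. All 8 ESC markers measured were lower in SSC, against 36.5% of all genes. Nanog, Esrrb and Tdgf1 were detected on no SSC array and entered only through ESC. The other 5 were detected on all 6 arrays and were lower, against 38.2% of all such genes. Of these, Pou5f1, Utf1 and Zfp42 still had log2 means of 9.41, 8.89 and 8.26 in SSC. Of 10 spermatogonial markers, 8 were higher in SSC, against 37.9% of all genes, and 2 were not called. Ret was detected on no ESC array and entered only through SSC. Without background correction 2 of the 10 were called lower, as in the processed table, and a further kept probe of Etv5, not called on its brightest, was lower at −2.66 (adjusted p = 1.21e-09). Markers of testicular somatic cells were also present in the SSC arrays. Summed over the brightest probe of every list member with a probe, the normalized intensity of 6 Sertoli cell markers was 2829 to 3088 in SSC against 185 to 204 in ESC, with 5 higher and 1 lower. That of 8 fibroblast and peritubular myoid markers was 7235 to 8129 in SSC against 3036 to 3234 in ESC, with 7 higher and 1 not called. The latter, Acta2, had a log2 mean of 11.49 in ESC, where the other 7 had 5.98 or less, so the ESC sum rests mainly on it. Its other kept probes were higher in SSC, at 1.28 to 1.36. Sox9, Amh and Fshr among the Sertoli markers, and Dcn, Col1a2, Col3a1 and Myh11 among the fibroblast and myoid markers, were detected on no ESC array. The 5 Leydig markers summed to 477 to 605 in SSC against 283 to 291 in ESC. Star and Hsd3b1 were detected on no array. Of the 3 measured, Cyp17a1 and Insl3 were higher and Cyp11a1 lower, Cyp17a1 being detected on 3 SSC arrays and no ESC array. The 4 macrophage and leukocyte markers summed to 109 to 128 in SSC against 93 to 96 in ESC. Ptprc and Adgre1 were detected on no array, Csf1r was not called, and Lyz2 was higher, on 3 SSC arrays and no ESC array. The 5 endothelial markers summed to 171 to 199 in SSC against 923 to 1024 in ESC. Pecam1, the brightest of them in ESC at a log2 mean of 9.51, and Vwf were lower in SSC, and Tek was not called. Cdh5 was higher, detected on 3 SSC arrays and no ESC array. The part of somatic cells in the values below, of the PRC2 genes and of the other gene lists such as the developmental regulators, was not tested. The arrays detected 16505 to 17211 probes in SSC and 15242 to 15613 in ESC, and arrays correlated at 0.989 to 0.993 within a group and at 0.784 to 0.795 between groups.

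The PRC2 genes that could be measured were lower in SSC than in ESC. On the brightest probe of each gene, 8 of 8 passed the test as lower and 0 as higher, against a background of 36.5% of all genes lower, 37.9% higher and 74.4% called in either direction. Phf19 entered only through its ESC values and so had to differ. Among the 7 genes whose brightest probe was detected on all 6 arrays, 7 were lower, where 38.2% of all such genes were. The sizes were uneven: Epop fell by more than 6 log2 units, Ezh2 and Eed by more than 1.5, and Suz12, Ezh1 and Aebp2 by less than 0.5. Differences are SSC minus ESC on the log2 scale of normalized intensity, each with its standard error from the fit, and a call is an adjusted p under 0.05 over all 17435 kept probes. The median of the 8 genes was −1.05, or −0.88 with Phf19 at its bound, against 0.0036 over all 10024 genes. In bulk samples such as these, fewer cells of a type and less RNA per cell cannot be told apart.

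**Figure D1:**
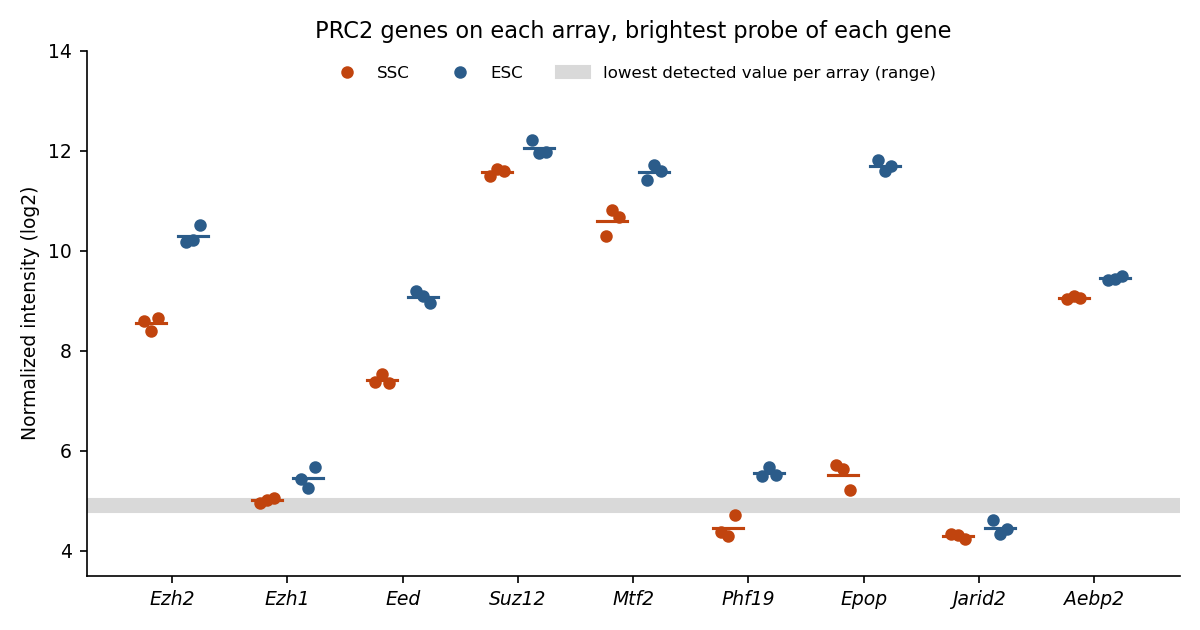
Log2 normalized intensity (vertical axis) of the brightest probe of each of the 9 PRC2 genes on each array, SSC in orange left of ESC in blue, with a short line at each group's mean. The SSC points lie below the ESC points for every gene with a kept probe, with the widest gap at Epop, and Jarid2 and the SSC values of Phf19 lie under the grey band, which spans the lowest detected value of the 6 arrays; levels of different genes rest on different probes and are not comparable.

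Promoter windows of 4 of these genes are shown here. Ezh2, Suz12 and Phf19 carry a match to the sequence bound by E2F factors, the regulators of cell cycle genes, and Eed is shown as a window without one. The windows run from 250 bases before the start of transcription to 50 bases after it (RefSeq, GRCm38.p6), 5′ to 3′ on the strand of the gene, and capitals mark the match. They lie at chr6:47594981-47595280 on the minus strand (Ezh2), chr11:79992856-79993155 on the plus strand (Suz12), chr2:34913927-34914226 on the minus strand (Phf19) and chr7:89980927-89981226 on the minus strand (Eed).
Ezh2: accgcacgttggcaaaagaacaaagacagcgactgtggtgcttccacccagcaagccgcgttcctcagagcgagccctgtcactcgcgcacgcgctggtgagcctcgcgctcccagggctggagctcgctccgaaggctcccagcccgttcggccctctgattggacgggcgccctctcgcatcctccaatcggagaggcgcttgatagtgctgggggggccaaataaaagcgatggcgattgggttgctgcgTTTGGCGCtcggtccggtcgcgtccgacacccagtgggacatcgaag
Suz12: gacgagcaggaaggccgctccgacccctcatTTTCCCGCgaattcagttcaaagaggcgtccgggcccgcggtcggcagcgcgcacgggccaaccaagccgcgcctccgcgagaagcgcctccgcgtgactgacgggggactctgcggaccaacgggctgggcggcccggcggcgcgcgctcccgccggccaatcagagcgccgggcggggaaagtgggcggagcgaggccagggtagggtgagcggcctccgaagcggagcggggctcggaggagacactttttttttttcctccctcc
Phf19: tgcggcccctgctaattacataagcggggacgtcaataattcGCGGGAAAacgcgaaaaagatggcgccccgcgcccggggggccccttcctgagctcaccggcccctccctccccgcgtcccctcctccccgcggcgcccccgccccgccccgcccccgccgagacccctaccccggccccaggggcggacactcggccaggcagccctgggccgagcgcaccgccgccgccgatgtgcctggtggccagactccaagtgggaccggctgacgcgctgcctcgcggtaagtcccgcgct
Eed: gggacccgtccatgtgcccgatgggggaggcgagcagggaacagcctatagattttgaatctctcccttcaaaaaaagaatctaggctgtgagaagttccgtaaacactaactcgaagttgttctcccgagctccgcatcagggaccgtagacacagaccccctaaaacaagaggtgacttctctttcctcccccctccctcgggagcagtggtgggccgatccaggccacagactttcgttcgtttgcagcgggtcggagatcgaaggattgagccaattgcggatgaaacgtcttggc

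The match of Ezh2 reads TTTGGCGC and covers bases 4 to 11 of the transcript, that of Suz12 reads TTTCCCGC at −219 to −212, and that of Phf19 is TTTCCCGC on the opposite strand at −208 to −201. The letters searched, on both strands, were TTTCCCGC, TTTGGCGC, TTTCGCGC and TTTGCCGC. A window was found for 8 of the 9 genes, Epop being the one without, with 12 windows in all, and 3 of these 8 genes held a match. Over all 27025 genes with a window, whether measured here or not, 2.6% held one, and over all 32851 windows 2.26%. Every sequence searched contains a CpG pair, and these shares were not matched for CpG content or for windows per gene. The box CCAAT stood in a window of 6 of the 8 genes and the GC box GGGCGG in a window of 5, against 41.1% and 38.2% of all genes, and 0 of the E2F matches overlapped either. The windows shown hold 31 CpG pairs in Ezh2, 41 in Suz12, 38 in Phf19 and 17 in Eed, against a median of 7 over all windows. These are matches of letters, and binding was not measured. The part of E2F factors in the differences was not tested.

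Ezh2, the main methyltransferase of dividing cells, was one of the more strongly lowered genes. Its brightest probe, ILMN_1234171, had deposited intensities of 485.7, 476.5 and 496.6 in SSC samples 1, 2 and 3, against 1260, 1264 and 1500 in ESC samples 1, 2 and 3. The highest SSC value lay far under the lowest ESC value. Normalized, the probe averaged 8.55 ± 0.131 in SSC and 10.30 ± 0.189 in ESC (SD, n = 3 each), a difference of −1.75 ± 0.13 (SE; limma adjusted p = 8.33e-08), or 3.37-fold lower. A difference this low or lower was held by 570 of the 10024 genes. A dimmer Ezh2 probe, ILMN_2988572, was detected on 1 of 3 SSC arrays and on 3 of 3 ESC arrays, with 108.5, 120.2 and 110 in SSC against 138.7, 139.8 and 138.7 in ESC. It gave −1.23 ± 0.12 (adjusted p = 1.33e-06), and its size was −0.35 without background correction (adjusted p = 0.000203). This probe met the filter through its ESC arrays, which favours its call. The remaining Ezh2 probe was detected on no array.

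Ezh1, the paralog that is known for a weaker methyltransferase activity and for its use in resting cells, was near the detection limit in both groups. ILMN_3107974 read 118.9, 124.3 and 121.3 in SSC, against 125.7, 122.4 and 130.1 in ESC. The deposited values of the groups overlapped, ESC sample 2 lying below SSC sample 2. After background correction and quantile normalization the values were 4.95, 5.02 and 5.06 in SSC against 5.44, 5.26 and 5.68 in ESC, and no longer overlapped. The difference was −0.45 ± 0.13 (SE, n = 3 per group; limma adjusted p = 0.00745). The call was lost without background correction (−0.12, adjusted p = 0.0603), from the authors' processed table (−0.12, adjusted p = 0.0606) and with scaling on array medians (−0.175, adjusted p = 0.25).

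Eed, the subunit that reads the H3K27 mark and stimulates the enzyme, fell about as much as Ezh2. ILMN_2765015 had 265.7, 309.1 and 263.1 in SSC, against 662.8, 611.3 and 540 in ESC, with no overlap. It averaged 7.42 ± 0.101 in SSC and 9.08 ± 0.120 in ESC (SD, n = 3 each), a difference of −1.66 ± 0.12 (adjusted p = 5.74e-08), or 3.16-fold lower. A further Eed probe, ILMN_1253609, went the other way without passing the filter. It was detected on 2 SSC arrays and 0 ESC arrays, read 116.3, 112.3 and 122.5 in SSC against 109, 107 and 108.2 in ESC, and with no filter differed by 0.34 (adjusted p = 0.11).

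Suz12, the scaffold of the core, was called lower with a smaller difference. ILMN_3009010 read 2695, 3013 and 2712 in SSC, against 5590, 4581 and 4516 in ESC, all SSC values under all ESC values. Normalized it averaged 11.57 ± 0.0621 in SSC and 12.05 ± 0.147 in ESC (SD, n = 3 each), which differ by −0.48 ± 0.12 (adjusted p = 0.00295), or 1.40-fold lower. Its size depended on the scaling, and was −0.87 with scaling on array medians. The other Suz12 probe was detected on no array and its groups overlapped.

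The core subunits were also compared within the same arrays, by the change of their log2 ratios. The ratio of Suz12 to Ezh2 was higher in SSC than in ESC by 1.27 (SD 0.176 in SSC and 0.289 in ESC), that of Suz12 to Eed by 1.18 (SD 0.0715 in SSC and 0.104 in ESC) and that of Ezh1 to Ezh2 by 1.30 (SD 0.136 in SSC and 0.104 in ESC). With scaling on array medians the change was 0.83 for Suz12 to Ezh2 and 0.605 for Suz12 to Eed, and without background correction 0.76 for Suz12 to Eed. In the 3 ratios as first given the groups did not overlap, and the two-sided exact permutation p was 0.1, the smallest that 3 samples against 3 allow. It was 0.133 after adjustment over the 4 ratios computed. The ratio of Eed to Ezh2 changed by 0.09 (SD 0.232 in SSC and 0.305 in ESC) with overlapping groups and an exact permutation p of 0.7, adjusted 0.7. The sign of that last ratio turned when single samples were left out, with −0.08 without ESC replicate 3 and −0.04 without SSC replicate 2. The Ezh1 probe, with log2 means of 5.01 in SSC and 5.46 in ESC, was near the lowest detected values of 4.77 to 5.03. It had little room to fall, so the ratio of Ezh1 to Ezh2 mainly follows Ezh2. A ratio within an array reflects unequal change of 2 probes and does not give the relative amount of their RNAs. The ratios among Ezh2, Eed and Suz12 were added after the values were seen.

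Epop, an accessory subunit that links PRC2.1 to elongins, had the widest difference of the 9 genes. ILMN_2963091 read 143.6, 146.4 and 125.7 in SSC, against 4240, 3563 and 3633 in ESC, and was detected on all 6 arrays. Normalized it averaged 5.52 ± 0.271 in SSC and 11.70 ± 0.111 in ESC (SD, n = 3 each), a difference of −6.18 ± 0.15 (limma adjusted p = 1.87e-12), or 72.6-fold lower. It was 5th from the lowest of all 10024 genes. Without background correction the difference was −4.53 (adjusted p = 6.1e-10).

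Mtf2, a Polycomb-like protein that carries PRC2.1 to CpG-rich DNA, fell on 3 probes of unequal size. The brightest, ILMN_2703913, read 1313, 1930 and 1595 in SSC, against 3139, 3904 and 3404 in ESC, with a difference of −0.99 ± 0.15 (SE, n = 3 per group; limma adjusted p = 4.92e-05). ILMN_2823796 read 173, 202.5 and 173.4 in SSC, against 678.4, 673.8 and 734.9 in ESC, with a difference of −2.91 ± 0.13 (adjusted p = 3.8e-10). ILMN_2452440 read 171.3, 180.6 and 175.4 in SSC, against 653.9, 638.9 and 747.5 in ESC, with a difference of −2.97 ± 0.12 (adjusted p = 2.8e-10). No probe had overlapping groups. The brightest probe thus fell less than the mean of the other 2 by 1.95 log2 units, and the mean of the 3 probes was −2.29. That gap was 1.04 in the processed table of the authors and likewise with no background correction, where the dimmer probes were at −1.98 and −1.99. Which transcripts each probe reads was not analysed here.

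Phf19, another Polycomb-like subunit of PRC2.1, was detected on 0 SSC arrays and 3 ESC arrays. ILMN_2601840 read 103.7, 103.5 and 112.4 in SSC, against 127.1, 132.8 and 125.8 in ESC, without overlap. It was at least 1.70-fold lower in SSC. The probe passed the filter only through ESC, so its call was fixed by the filter. The bound sets the ESC mean against, on each SSC array, either the probe's value or that array's lowest detected value, whichever is higher. It holds for this background correction: without one the fitted difference was −0.29.

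Jarid2, the PRC2.2 subunit that binds ubiquitinated histone H2A, could not be assessed. ILMN_1225779 read 102.4, 103.7 and 98.22 in SSC against 109.8, 105 and 105.6 in ESC, and ILMN_2597199 read 103.9, 101.9 and 106.6 in SSC against 99.24, 97.72 and 103.4 in ESC. Both probes were detected on no array, so no difference was detectable in either direction. With no filter they differed by −0.17 (adjusted p = 0.221) and 0.11 (adjusted p = 0.389).

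Aebp2, the zinc finger partner of Jarid2 in PRC2.2, had 7 probes, of which 5 were kept and called lower, with sizes that varied between probes and with the background correction. The brightest, ILMN_2562670, read 618.3, 696.7 and 620.5 in SSC, against 762.9, 759.9 and 753.3 in ESC. It averaged 9.06 ± 0.0276 in SSC and 9.45 ± 0.0379 in ESC (SD, n = 3 each), a difference of −0.39 ± 0.11 (adjusted p = 0.00624), or 1.31-fold lower. The widest Aebp2 difference was on ILMN_3040064, with 104, 107.1 and 103.1 in SSC, detected on 0 arrays, against 172.3, 165 and 166.4 in ESC, detected on 3. This probe was at least 3.38-fold lower in SSC (adjusted p = 1.87e-09), and its fitted difference without background correction was −0.70. ILMN_2626919 was likewise detected on no SSC array and was at least 1.47-fold lower. ILMN_3040064 and ILMN_2626919 passed the filter only through ESC, so their calls were fixed by it. The other 2 kept probes were at −0.72 ± 0.17 (ILMN_1258253) and −0.70 ± 0.13 (ILMN_3138674). Without background correction they were at −0.28 and −0.26, and ILMN_1258253 lost its call with scaling on array medians (adjusted p = 0.0519). In the deposited values ILMN_1258253 and ILMN_2626919 overlapped between groups. The mean of the 5 kept probes was −0.96.

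**Figure D2:**
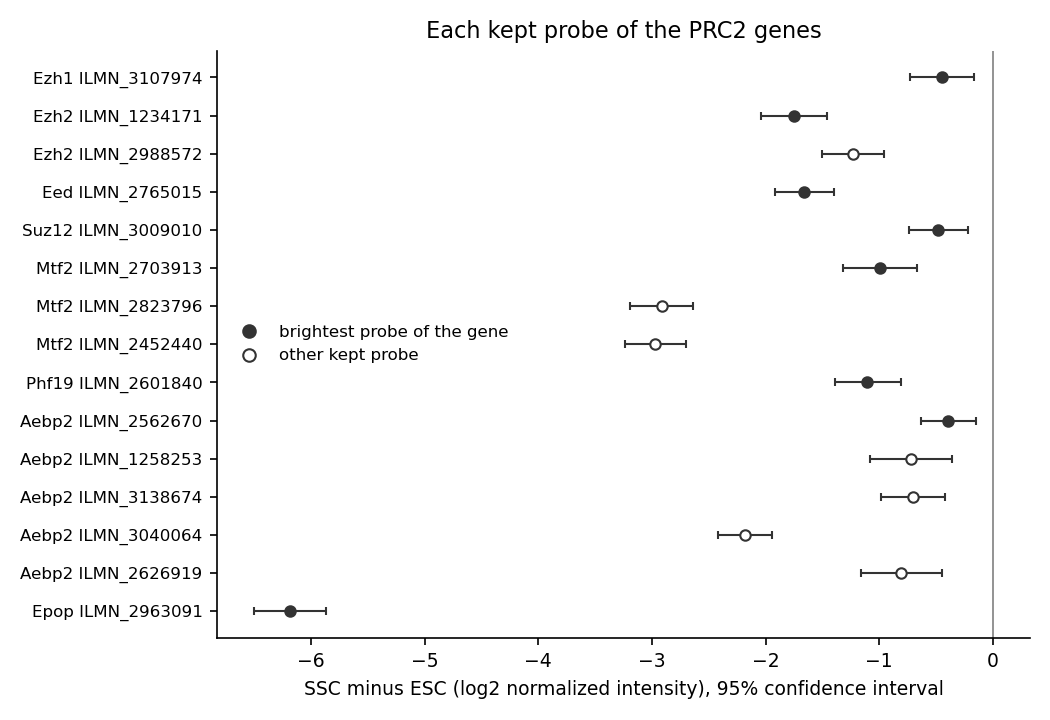
Difference SSC minus ESC in log2 normalized intensity (horizontal axis) with its 95% confidence interval for each of the 15 kept probes of the PRC2 genes, filled for the brightest probe of a gene and open for its other kept probes. Every interval lies left of 0, and probes of Mtf2 and of Aebp2 differ in size.

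Over probes, 15 of 15 kept probes of the 9 genes were lower, where 37.5% of all kept probes were and 73.6% were called in either direction. Of these 15, 3 were detected on no SSC array and entered through ESC, so their calls were fixed by the filter. Ezh2 ILMN_2988572, detected on 3 ESC arrays and 1 SSC array, also met the filter through ESC, which favours its call. Of the 11 detected on all 6 arrays 11 were lower, against 40% of all such probes. Of the 7 genes whose brightest probe was detected on all 6 arrays, 3 (Epop, Ezh2 and Eed) were at least 2-fold lower, against 14.7% of all such genes. The SSC values of these 7 genes all lay under their ESC values, as they did for 40.1% of all such genes. Before normalization 3 of the 15 probes overlapped, 1 of Ezh1 and 2 of Aebp2.

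**Figure D3:**
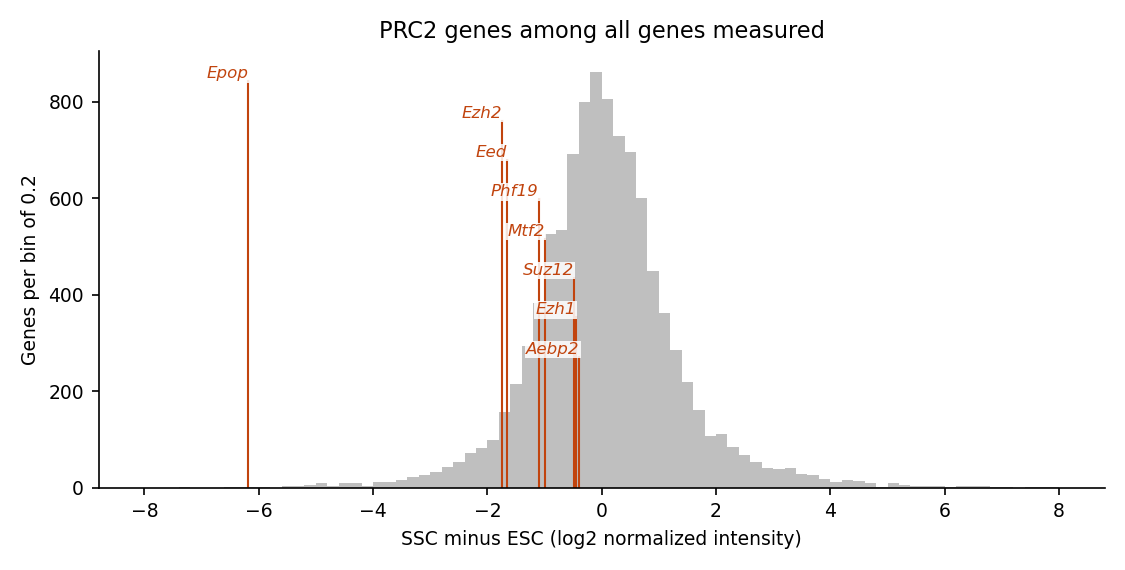
Histogram of the difference SSC minus ESC (horizontal axis, log2 normalized intensity) over the 10024 genes measured, with the number of genes per bin on the vertical axis and a line at each of the 8 PRC2 genes measured; line heights serve the labels only. Epop stands in the far left tail and Ezh1, Suz12 and Aebp2 within the bulk of genes.

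The genes whose pattern over the 6 arrays lay nearest to Ezh2, by root mean square distance of log2 values centred on each gene's mean, were Mcts1 (distance 0.0361), Gpx1 (0.0472) and Phlda3 (0.0665). They were lower in SSC by differences of −1.75, −1.74 and −1.70. Nearest to Epop were the pluripotency factors Nanog (0.145) and Esrrb (0.236), then Gtsf1l (0.247), with differences of −6.27, −5.94 and −6.25. Nanog and Esrrb were detected on no SSC array, so that their fitted differences are no measured folds. With samples of SSC and ESC only, the distance mainly follows the difference between the group means. Shared regulation was not tested.

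Other partners of PRC2 were not called on the brightest probe of each gene. The histone chaperones Rbbp4 and Rbbp7, Lcor, whose locus also encodes a PRC2.1 protein, the elongins Elob and Eloc, and the inhibitor Ezhip were measured, and 0 of these 6 passed the test on that probe in either direction in limma, with a median of 0.08, where 74.4% of all genes were called. At an unadjusted p under 0.05 the count was 0. Rbbp4 averaged 8.47 ± 0.291 in SSC and 8.44 ± 0.189 in ESC (SD, n = 3 each), a difference of 0.03 ± 0.16 (adjusted p = 0.881), but another kept Rbbp4 probe was higher at 2.19 (adjusted p = 5.81e-09) and the third was at −0.06 (adjusted p = 0.674). Rbbp7 differed by 0.08 ± 0.15 (adjusted p = 0.638) and Ezhip, known to block the PRC2 enzyme, by 0.25 ± 0.13 (adjusted p = 0.0937). Lcor was at 0.24 ± 0.12 (adjusted p = 0.0828), Eloc at 0.07 ± 0.12 (adjusted p = 0.577) and Elob at −0.13 ± 0.14 (adjusted p = 0.404). Further kept probes passed the test for Lcor, higher at 0.59 (adjusted p = 0.000915), and for Elob, lower at −0.42 (adjusted p = 0.00569). Phf1, the remaining Polycomb-like gene, and Lcorl were detected on no array. With scaling on array medians 3 of the 6 were higher and 1 lower, with the mean of all kept probes 2 were higher and 1 lower, and without SSC replicate 1 or SSC replicate 3 the count of higher genes was 1, so that the absence of calls depends on the processing, the probe and the samples.

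Genes that act against the PRC2 mark were called in each direction about as often as other genes. Of 10 measured genes of the H3K27 demethylases and the Trithorax group, 4 were higher and 5 lower, with a median of −0.07, where 37.9% of all genes were higher and 36.5% lower. Shared subunits of the H3K4 methyltransferase complexes were among the lower ones. Dpy30 averaged 10.01 ± 0.153 in SSC and 11.51 ± 0.0425 in ESC (−1.50 ± 0.12, adjusted p = 1.53e-07), Ash2l was at −1.21 ± 0.12 (adjusted p = 8.33e-07) and Wdr5 at −0.76 ± 0.16 (adjusted p = 0.000676). The enzymes Kmt2a (1.14 ± 0.12, adjusted p = 1.89e-06), Kmt2d (0.82 ± 0.13, adjusted p = 8.99e-05) and Kmt2b (0.66 ± 0.13, adjusted p = 0.000505) were higher. On their other kept probes Dpy30 was at −1.44, Ash2l at −0.66 and Kmt2a at 0.59. The demethylase Kdm6a was lower at −0.43, and Kdm6b was higher at 0.44, with its other kept probes at −0.23 and 0.42.

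Polycomb repressive complex 1, which ubiquitinates histone H2A and binds the PRC2 mark through its Cbx subunits, had 9 higher, 8 lower and 3 not called of 20 measured, with a median of 0.19, shares near those of all genes (37.9% higher and 36.5% lower). Cbx7, the main Cbx subunit of ESC, averaged 5.59 ± 0.243 in SSC and 8.69 ± 0.293 in ESC (SD, n = 3 each), a difference of −3.10 ± 0.17 (adjusted p = 2.71e-09). Phc1 (−1.30 ± 0.12) and Bcor (−1.25 ± 0.13) were lower as well. On their other kept probes Phc1 was at −0.91 and −2.45 and Bcor at −0.95. Cbx8 was at least 2.48-fold and Bmi1 at least 2.12-fold higher in SSC, neither detected on any ESC array. Both passed the filter only through SSC, and Pcgf2, called lower, only through ESC, so the counts are favoured by it. Where detection on all 6 arrays was required, 7 were higher and 6 lower of 16. Of all genes whose brightest probe was so detected, 38.2% were lower. Pcgf5 was higher by 1.61 ± 0.11, with 0.32 on its other kept probe.

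Developmental regulators that PRC2 is known to cover in ESC were mostly dim in both cell types. Of 42 with a probe, 29 were detected on no SSC array and 29 on no ESC array, and 13 were measured. Of these 7 were higher and 5 lower in SSC, against 37.9% and 36.5% of all genes. Hoxd9, Otx1 and Gata4 passed the filter only through SSC and En2 only through ESC. Isl1, Cdkn2a and Cdkn2b were detected on 3 SSC arrays and 1 ESC array, Gsc and Olig1 on 3 ESC arrays and 1 SSC array. These also met the filter through the group where they are higher, so the counts are favoured by it. Of the 4 genes detected on all 6 arrays 1 was higher and 2 were lower. Over the 13 genes the median was 0.71, or 0.26 where genes not detected on all arrays of a group were set to their bound. Gata6, an endoderm and gonad factor, averaged 9.79 ± 0.158 in SSC and 7.68 ± 0.329 in ESC, a difference of 2.11 ± 0.16 (adjusted p = 9.47e-08). Hoxd9 was at least 2.79-fold higher and the cyclin-dependent kinase inhibitor Cdkn2b at least 2.48-fold higher, Hoxd9 being detected on no ESC array and Cdkn2b on 1. En2 was at least 4.70-fold lower and detected on no SSC array, and Gsc (at least 2.81-fold) and Olig1 (at least 1.94-fold) were lower and detected on 1 SSC array each. For the genes detected on 1 array of a group the bound is formed in the same way.

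Proliferation genes were mostly lower in SSC as well. Of 17 measured, 16 were lower in SSC, 0 were higher and Rrm1 was not called, where 36.5% of all genes were lower and 37.9% higher. Averaged over all kept probes, 2 were higher. The median was −1.06, and the summed normalized intensity of the 19 with a probe was 9667 to 11368 in SSC against 18000 to 18512 in ESC. The summed intensity of the 9 PRC2 genes was 5355 to 6145 in SSC against 12984 to 13680 in ESC. In ESC that PRC2 sum rests mainly on Suz12, Epop and Mtf2, with log2 means of 12.05, 11.7 and 11.58. Such sums weigh bright probes most and do not show a parallel fall of all members. Rrm2, a subunit of ribonucleotide reductase, was at −2.79 ± 0.14 (adjusted p = 1.92e-09), with 0.12 and −2.78 on its other kept probes. The spindle motor Kif11 was at −1.75 ± 0.22 (adjusted p = 8.2e-06) and the mitotic kinase Aurka at −1.70 ± 0.12 (adjusted p = 4.41e-08). Mcm6, chosen for mention after its values were seen, was at −0.95 on its brightest probe and at 3.8 and −0.97 on the others. The part of proliferation in the PRC2 differences was not tested.

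**Figure D4:**
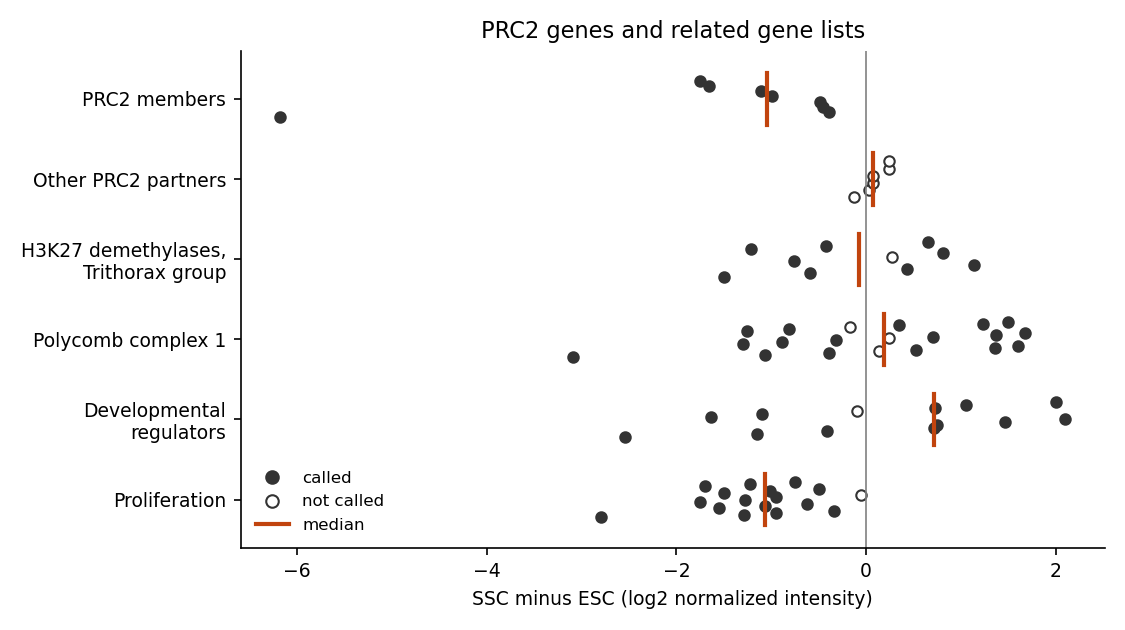
Difference SSC minus ESC (horizontal axis, log2 normalized intensity) of each measured gene of 6 lists, filled where called and open where not, with the list's median as a vertical bar. The PRC2 genes and the proliferation genes lie to the left of 0, the other PRC2 partners close to it, and the remaining lists on both sides.

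**Figure D5:**
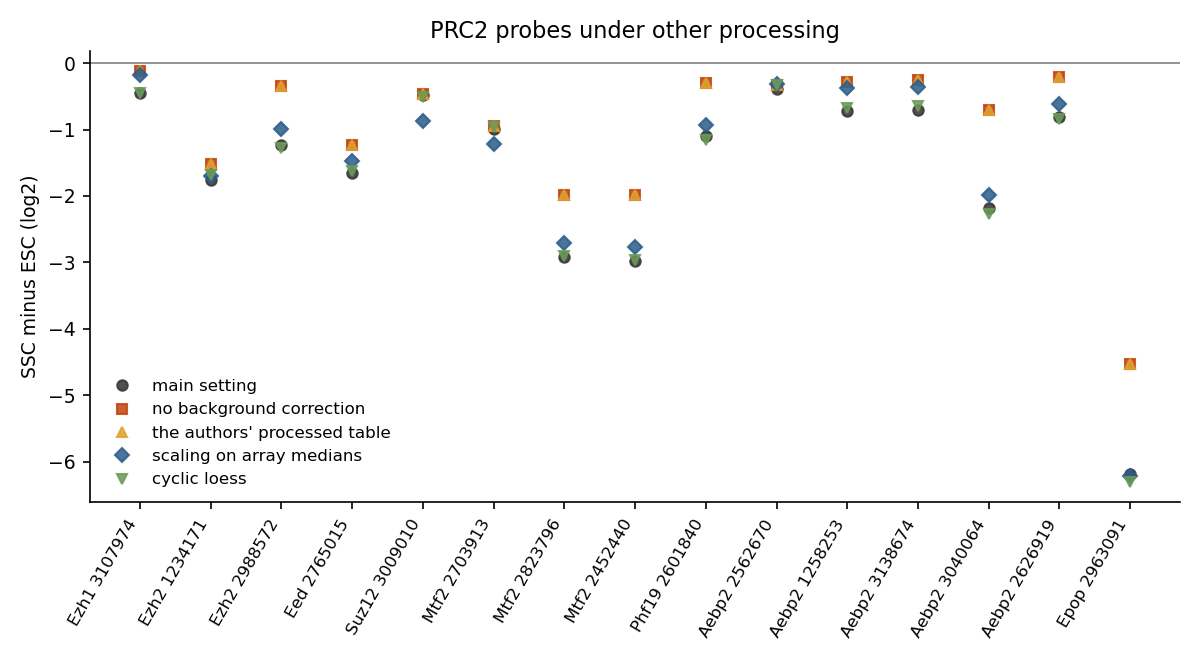
Difference SSC minus ESC (vertical axis, log2) of each kept PRC2 probe, named by gene and probe number, under the main setting and 4 other processings. Every value lies below 0, and values without background correction or from the authors' processed table lie nearer to 0 for dim probes and for Epop.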

How the data were processed

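The deposited table of intensity values holds the mean brightness of each of 45281 probes on each array, linear, not normalized between arrays and with its background, next to its detection p-value, per the file headers. The submitters' processing notes name GenomeStudio and no version. The authors also deposited processed intensity values, with column medians of 107.09 to 107.14, used as an alternative. Their making is not stated in the labels. When fitted, they gave nearly the same differences as the setting without background correction, with 12368 and 12366 probes called. These settings are therefore no independent checks of each other. Probes were named from the platform annotation, with 34885 to 1 gene, 18 to several and 10378 unnamed, and 34807 matched RefSeq GRCm38.p6 by gene ID.

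Background was corrected by normexp from the detection p-values (offset 16), followed by quantile normalization and log2 (limma 3.58.1, R 4.3.3). Probes entered the fit when at least 3 of 6 arrays gave a detection p under 0.01. Kept probes were fitted with lmFit and eBayes without covariates, with Benjamini-Hochberg adjustment over 17435 probes. A gene is represented by its kept probe of highest mean. The fit was tested on simulated data.

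The members and lists were chosen with earlier results of these data known. Of each list up to 3 called genes of the largest size per direction are named, and the other PRC2 partners, Kdm6a and Kdm6b were named after their values were seen. Same-numbered samples deviated with correlations of −0.14, −0.07 and 0.03, so no pairing by number was seen. These values cannot exclude that same-numbered samples were handled together. Slide and scan are not given in the sources used here. The number of arrays limits the precision.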

Additional observations from a re-analysis of the deposited data

How the results depend on the processing

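The 15 kept PRC2 probes stayed lower in SSC under every alternative in which they were tested. Calls were lost in 4 cases and kept in 240: Ezh1 with median scaling, with no background correction and from the processed table of the authors, and Aebp2 ILMN_1258253 with median scaling (−0.38, adjusted p = 0.0519). The processed table and the setting without background correction gave nearly the same values, yet each is counted here. Kept PRC2 probes called numbered 14 without background correction and from the processed table, 13 with median scaling and 15 in each fit that left out 1 sample. Median scaling shifted the median of all genes by 0.19. The median of the PRC2 genes was −0.71 without background correction and from the processed table, −1.30 with the mean of all kept probes and −1.13 to −0.945 with 1 sample left out.

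Of the other PRC2 partners, 3 were higher and 1 lower with median scaling, 2 were higher with cyclic loess, 2 were higher and 1 lower with the mean of all kept probes, and 0 to 1 were higher with 1 sample left out. Where detection on all 6 arrays was required, only 4 developmental regulators remained to be tested, 2 lower and 1 higher. With the mean of all kept probes 2 proliferation genes were higher. With 1 sample left out the change of the Eed to Ezh2 ratio ranged from −0.078 (without ESC replicate 3) to 0.213, and was −0.043 without SSC replicate 2. With the replicate number as a block, 12665 of all kept probes were called against 12839 without it, and the PRC2 probes called stayed at 15. Dim probes are limited by signal over background.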
